A study of Mus musculus with 24 samples.

Results

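The 10 genes described here are factors and non-collagen matrix genes of the cartilage lineage, taken by name: Sox9, Sox5, Sox6, Acan, Hapln1, Prg4, Comp, Matn2, Matn4 and Cilp. All 10 were found among the 45706 Ensembl genes of the deposited count table, and all 10 passed the filter on low counts that left 16573 genes for testing. RNA sequencing had been carried out on 24 libraries of mouse embryonic fibroblasts, cultured connective tissue cells, from E13.5 embryos. There were 3 libraries in each of 8 groups: Vhl Cre and Vhl GFP, Rassf1a Cre and Rassf1a GFP, Vhl/Rassf1a Cre and Vhl/Rassf1a GFP, and WT Cre and WT GFP. Cre libraries carry the treatment label KO and GFP libraries the label control, in WT cells as well, where no gene is named as altered. The labels do not give the alleles, the means by which Cre or GFP reached the cells, or the number of embryos behind each genotype. If libraries of a group came from 1 culture, their p-values measure technical spread only. A genotype may also stand for 1 line of cells, so a difference between genotypes and one between lines cannot be told apart. The study's design note names renal proximal tubule cells and single-cell sequencing, and the labels of the samples were followed instead.

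Cartilage forms when mesenchymal cells commit to the chondrocyte fate under Sox9, a transcription factor, which acts with Sox5 and Sox6 to switch on the genes of the cartilage matrix. That matrix holds aggrecan (Acan), a large proteoglycan that hangs on hyaluronan and is fixed there by link protein (Hapln1), while Comp and the matrilins bridge collagen fibrils and other matrix proteins, and Prg4 lubricates joint and tendon surfaces. In the mouse growth plate, a poorly oxygenated tissue, hypoxia-inducible factors are known to act on Sox9 and on chondrocyte survival, and Vhl, a part of the ubiquitin ligase that marks these factors for destruction, restrains them.

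Library totals were 29.9 to 55.8 M counts, and levels are given as CPM, counts per M counts of the library after TMM scaling (M, mega). Vhl averaged 2.57 CPM ± 0.257 in Vhl Cre and 26.7 CPM ± 0.972 in Vhl GFP libraries (SD, n = 3 each), and 2.10 CPM ± 0.523 in Vhl/Rassf1a Cre against 22.0 CPM ± 1.59 in Vhl/Rassf1a GFP. Rassf1 averaged 26.6 CPM ± 1.25 in Rassf1a Cre and 27.9 CPM ± 2.90 in Rassf1a GFP libraries, but its gene count pools all transcript forms and checks no label. It was higher with Cre in the other altered genotypes, at 45.2 CPM ± 2.11 in Vhl/Rassf1a Cre against 32.6 CPM ± 3.95 in Vhl/Rassf1a GFP. In Vhl Cre it averaged 43.7 CPM ± 1.00 against 26.6 CPM ± 2.49 in Vhl GFP. Car9, a target of hypoxia-inducible factors, averaged 68.1 CPM in Vhl Cre against 2.56 CPM in Vhl GFP libraries. Of 12 fibroblast genes Col1a1 ran from 11013 to 18486 CPM and Vim from 4395 to 5811 CPM. In the same list Fap ran from 2.25 to 8.16 CPM and Lum from 3.50 to 26.4 CPM. Marker lists of other cell types were mixed as well. Of 6 muscle genes Ckm had no count in 16 of 24 libraries and Myod1 in 7, while Acta1 ran from 76.3 to 427.7 CPM and Des from 37.0 to 89.1 CPM. Of 6 epithelial genes Epcam did not exceed 0.371 CPM and Cdh1 0.518 CPM, while Krt19 ran from 33.2 to 182.3 CPM. Of 6 fat genes Plin1 had no count in 20 libraries and Adipoq in 12, while Pparg ran from 5.72 to 12.5 CPM. Of 7 neural genes Snap25 had no count in 10 libraries, while Nes ran from 210.8 to 403.1 CPM and Tubb3 from 43.5 to 106.8 CPM. Adgre1 of macrophages had no count in 23 libraries, and Cd68 ran from 2.23 to 4.91 CPM. Cartilage genes were mixed too: Snorc had no count in 22 libraries, Ucma in 20 and Matn1 in 13, whereas Matn3 ran from 0.374 to 1.80 CPM, Col10a1 from 61.4 to 164.9 CPM, Col11a1 from 280.6 to 451.8 CPM and Col2a1, the main fibrillar collagen of cartilage, from 117.5 to 750.2 CPM. In bulk RNA, more cells of a type and more RNA per cell cannot be told apart. Replicate 1 of Rassf1a GFP and replicate 2 of Vhl/Rassf1a GFP differed most from the rest of their groups, and stood apart. The SD of their log2 deviations across genes was 0.288 and 0.33, against 0.12 to 0.205 in the other 22 libraries, and these deviations correlated with gene GC content at 0.756 and 0.772. For the 10 genes, values without this pair are given beside the calls that rest on it. Calls on other genes include the pair and were not repeated without it.

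Scaled to exon length, Prg4 had the highest level among the 10 genes, at 14.3 CPM per kilobase on average over the 24 libraries, followed by Matn2 at 7.50, Sox9 at 5.69 and Comp at 2.17. The other members were lower on this scale: Sox6 stood at 0.414 CPM per kilobase, Acan at 0.403, Hapln1 at 0.339, Sox5 at 0.247, Matn4 at 0.203 and Cilp at 0.0426. The length counts bases in any annotated exon of a gene, 14832 for Sox6 and 14376 for Sox5 against 2967 for Comp. Without this scaling Sox6 averaged 6.14 CPM and Comp 6.45 CPM, so the order depends in part on the length used. Cilp, a protein of articular cartilage, had 2 to 14 counts in a library and was called in none of the 12 comparisons by edgeR, with an unadjusted p of 0.0614 at the lowest and with no call by DESeq2. Hapln1 varied most, with the mean CPM of its highest group 9.59 times that of its lowest. Acan followed with a ratio of 6.35, and Sox9 varied least, with a ratio of 1.49.

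**Figure D1:**
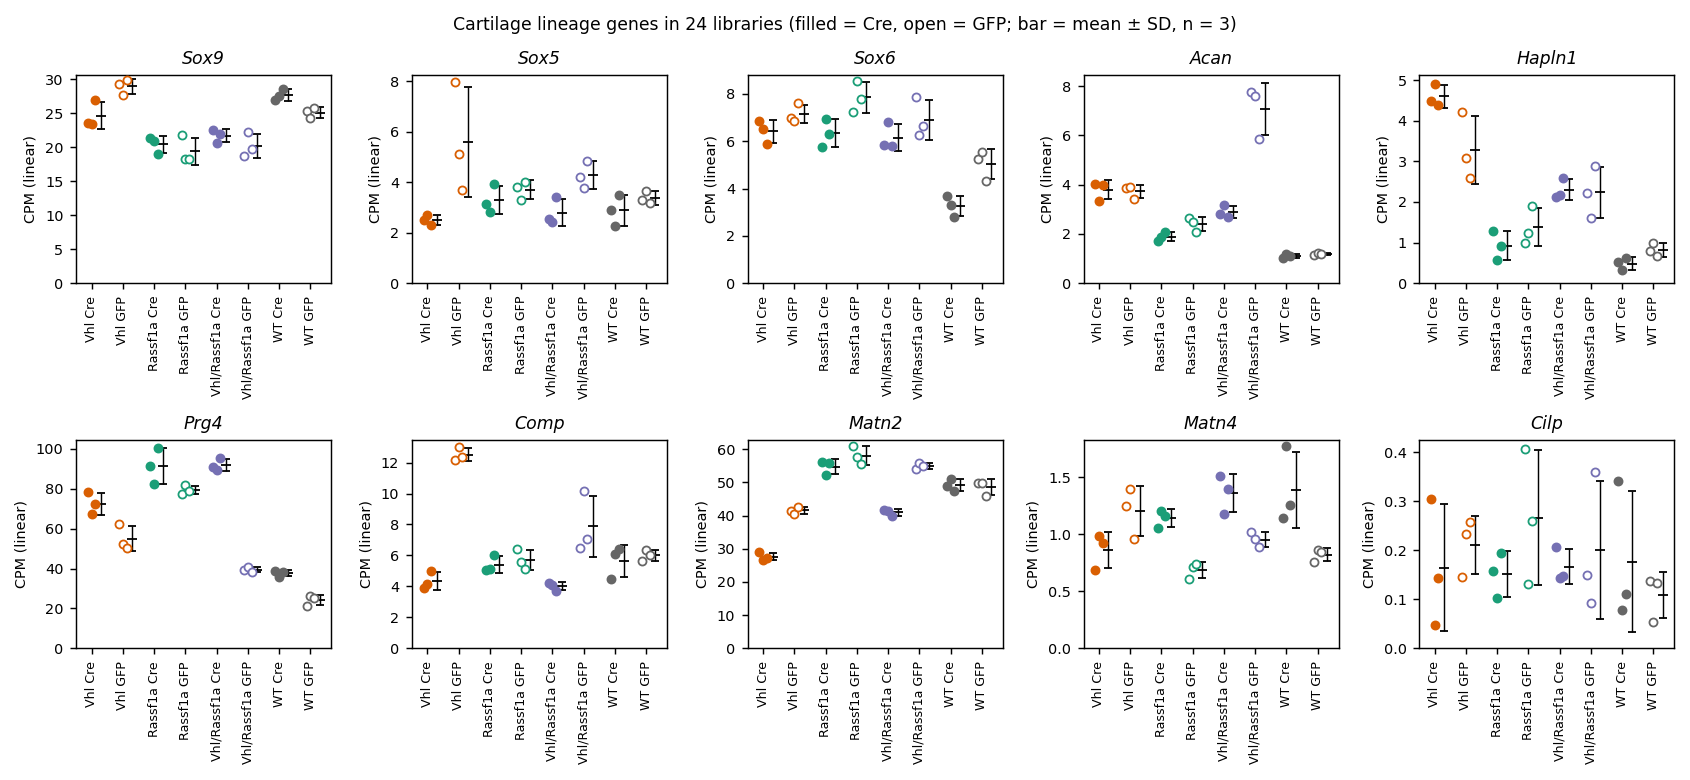
CPM (linear axes from 0) of the 10 genes in 24 libraries, with 1 panel a gene, 1 point a library and the mean ± SD of 3 libraries beside each group. Comp stands out in Vhl GFP at 12.2 to 13.0 CPM, Acan in Vhl/Rassf1a GFP at 5.85 to 7.75 CPM, and Sox9 is at 22.5 CPM or less in all 12 Rassf1a and Vhl/Rassf1a libraries, Cre and GFP.

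Cre against GFP, the difference of Cre effects, and GFP libraries against WT GFP were tested in 1 edgeR quasi-likelihood fit, with p-values adjusted by Benjamini-Hochberg over all 16573 genes, and a gene was called where the adjusted p was under 0.05. The 10 genes were chosen with earlier results of these data known. Their counts and medians beside those of all genes are a description and no test of the set. With Cre in Vhl cells, 1 of the 10 genes rose (Prg4) and 4 fell (Sox9, Sox5, Comp and Matn2), where 36.1% of all genes were called (17.4% higher and 18.7% lower). With Cre in Vhl/Rassf1a cells 2 rose (Prg4 and Matn4) and 4 fell (Sox5, Acan, Comp and Matn2), against 29.7% of all genes (14.9% higher and 14.8% lower). With Cre in WT cells 2 rose (Prg4 and Matn4) and Sox6 fell, against 1.26% of all genes (0.833% higher and 0.428% lower). In Rassf1a cells 0 of the 10 passed in edgeR and 0 in DESeq2, where 0.392% of all genes were called in edgeR, and 5 of the 10 had an unadjusted p under 0.05. The median log2 fold change of the 10 genes was -0.31 in Vhl cells, -0.12 in Rassf1a cells, -0.19 in Vhl/Rassf1a cells and -0.03 in WT cells, beside medians between -0.01 and 0.00 over all genes tested.

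The GFP libraries of the 4 genotypes differed too. In Vhl GFP against WT GFP 8 of the 10 genes were higher and 1 lower, where 32.1% of all genes were called (17.2% higher and 14.9% lower). In Rassf1a GFP against WT GFP 4 were higher and 1 lower, against 16.1% of all genes (9.39% higher and 6.68% lower). In Vhl/Rassf1a GFP against WT GFP 5 were higher and 1 lower, against 11.5% (6.86% higher and 4.68% lower). The members' median log2 fold changes were 0.84, 0.45 and 0.43 in these 3 comparisons, beside 0.01, 0.01 and 0.00 over all genes tested. These 3 comparisons share the WT GFP libraries, and the Vhl GFP, Rassf1a GFP and Vhl/Rassf1a GFP libraries are also the ones to which the Cre libraries of their genotypes were compared, so the values below are not independent of each other.

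**Figure D2:**
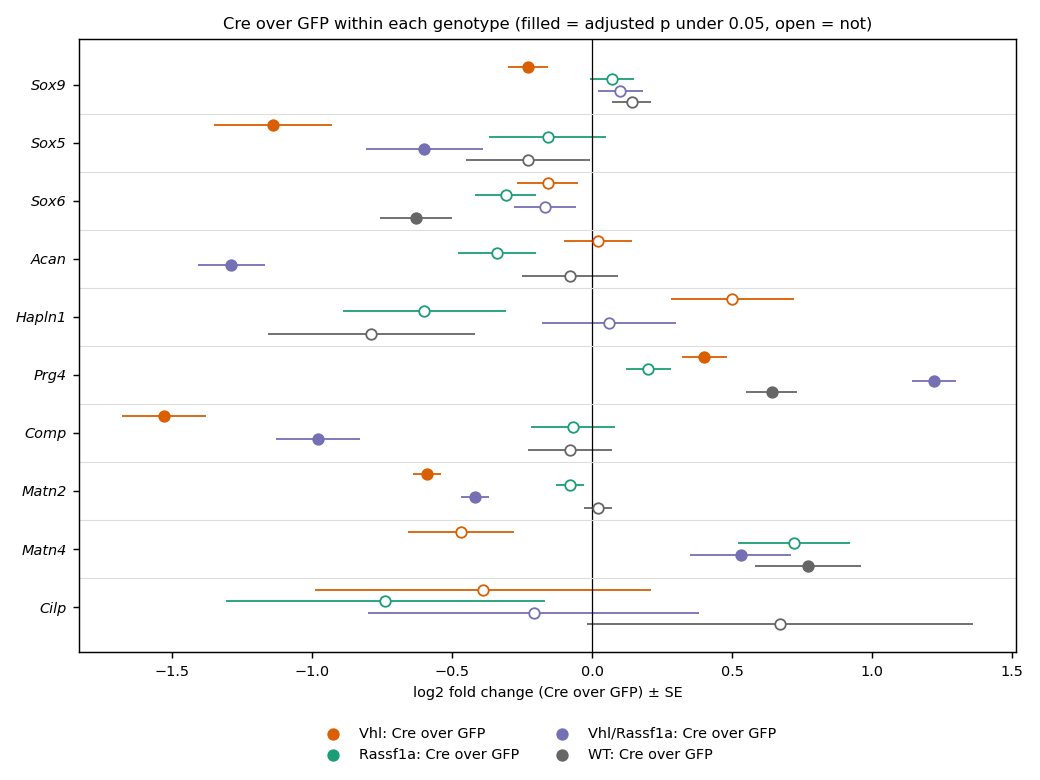
log2 fold change of Cre over GFP with its SE for each of the 10 genes (rows) in the 4 genotypes (colours), filled where the adjusted p was under 0.05. Comp, Matn2 and Sox5 lie left of 0 in Vhl and in Vhl/Rassf1a cells, and Acan reaches -1.29 in Vhl/Rassf1a cells while standing at 0.02 in Vhl cells.

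Sox9, the factor that commits cells to cartilage (ENSMUSG00000000567, GRCm38 chromosome 11, 112782224 to 112787760), was lower in the 4 groups whose names hold Rassf1a than in the other 4, in GFP control libraries as well as with Cre. It had 21.3, 20.9 and 19.0 CPM in Rassf1a Cre and 21.7, 18.3 and 18.3 CPM in Rassf1a GFP libraries. It had 22.5, 20.6 and 22.0 CPM in Vhl/Rassf1a Cre and 18.8, 22.2 and 19.7 CPM in Vhl/Rassf1a GFP libraries. All 12 of these values lay below all 12 from Vhl and WT cells, which began at 23.5 CPM. Against WT GFP, which had 25.3, 24.3 and 25.7 CPM, Sox9 was lower in Rassf1a GFP (-0.37 on the log2 scale, SE 0.08, adjusted p = 0.00111) and in Vhl/Rassf1a GFP (-0.31, SE 0.08, adjusted p = 0.00725). Without the 2 libraries that stood apart these values were -0.47 and -0.39. The Vhl/Rassf1a call was lost in a fit of those 2 groups alone (adjusted p = 0.0731). Cre over GFP in Vhl/Rassf1a cells gave 0.10 for Sox9 (SE 0.08, adjusted p = 0.349), or 0.18 and a call without the 2 libraries (adjusted p = 0.0418).

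In Vhl cells Sox9 had 23.5, 23.5 and 26.9 CPM with Cre, against 29.3, 27.7 and 29.8 CPM with GFP, with no overlap of the groups. The fitted change with Cre was -0.23 (SE 0.07, adjusted p = 0.0159), a call lost without Vhl GFP replicate 1 or 3 or Vhl Cre replicate 1 or 2 (adjusted p 0.059 to 0.0955). WT Cre libraries had 26.9, 27.5 and 28.6 CPM, a change of 0.14 over WT GFP that was not called (adjusted p = 0.64). The 2 effects of Cre differed by -0.38 (Vhl minus WT, SE 0.11, adjusted p = 0.011). The Cre effect on Sox9 in Vhl/Rassf1a cells minus that in Vhl cells was 0.34 and not called (SE 0.11, adjusted p = 0.0642). It was called under 5 alternatives, among them DESeq2 (adjusted p = 0.0311) and the fit without the 2 libraries that stood apart (0.41, adjusted p = 0.00236). In Vhl GFP against WT GFP Sox9 was 0.21 higher on the log2 scale (SE 0.07, adjusted p = 0.037), a call that was lost without any 1 of these 6 libraries (adjusted p 0.0513 to 0.156) and with no filter on low counts (0.173).

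Sox5, a partner of Sox9 on cartilage enhancers (ENSMUSG00000041540, GRCm38 chromosome 6, 143828425 to 144781977, minus strand), fell with Cre in Vhl and in Vhl/Rassf1a cells. It had 2.51, 2.71 and 2.30 CPM in Vhl Cre libraries, against 7.98, 5.12 and 3.68 CPM in Vhl GFP. All Cre values lay below all GFP values, and the GFP libraries spread widely. The fitted change was -1.14 (SE 0.21, adjusted p = 0.000182). The Vhl/Rassf1a libraries had Sox5 at 2.55, 2.44 and 3.40 CPM with Cre, against 4.22, 3.77 and 4.85 CPM with GFP (-0.60, SE 0.21, adjusted p = 0.0359). That call was lost without Vhl/Rassf1a GFP replicate 1 or 3 or Vhl/Rassf1a Cre replicate 1 or 2 (adjusted p 0.0628 to 0.121), and without the 2 libraries that stood apart the change was -0.69. WT Cre libraries had 2.88, 2.26 and 3.51 CPM and WT GFP 3.29, 3.67 and 3.16 CPM, which overlap. The Cre effects in Vhl and WT cells differed by -0.91 (SE 0.31, adjusted p = 0.0365), lost without 7 of the 12 libraries in turn: WT GFP replicate 1 or 3, WT Cre replicate 1 or 3, Vhl GFP replicate 1 and Vhl Cre replicate 1 or 3 (adjusted p 0.062 to 0.14). Sox5 was also higher in Vhl GFP than in WT GFP (0.71, SE 0.21, adjusted p = 0.0108), and without Vhl GFP replicate 1 this was 0.37 and not called (adjusted p = 0.159). Sox5 shares 1330 exon bases with its antisense transcript Sox5os1, and no source used here gives the strand setting of the counting, which leaves its counts uncertain.

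Promoter windows of 250 bases before a RefSeq gene start (GRCm38.p6) were at hand for 6 of the 10 genes. They are shown for Sox5 and Acan, the genes with the largest falls with Cre among these 6, in Vhl cells and in Vhl/Rassf1a cells. The core of the hypoxia response element was searched as ACGTG or GCGTG on either strand, with motifs free to overlap. Capitals mark a match, and of 32851 windows of this length over all genes 38.6% held at least 1. The Sox5 window, chr6:143947107-143947356 on the minus strand, lies before a start inside the long Sox5 gene and held 1 match, which begins 194 bases before that start. The Acan window, chr7:79052976-79053225 on the plus strand, held 0 matches.
Sox5: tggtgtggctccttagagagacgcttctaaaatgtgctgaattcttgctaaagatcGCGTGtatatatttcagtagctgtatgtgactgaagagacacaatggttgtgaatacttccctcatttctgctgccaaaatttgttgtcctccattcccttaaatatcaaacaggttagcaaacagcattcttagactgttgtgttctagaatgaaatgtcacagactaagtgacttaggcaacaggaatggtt
Acan: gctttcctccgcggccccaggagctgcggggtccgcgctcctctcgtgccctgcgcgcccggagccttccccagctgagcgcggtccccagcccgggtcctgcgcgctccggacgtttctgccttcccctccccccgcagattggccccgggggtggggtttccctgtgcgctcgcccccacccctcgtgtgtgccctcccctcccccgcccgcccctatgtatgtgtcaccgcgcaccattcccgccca
The other windows were those of Sox6, Hapln1, Matn4 and Cilp, where 1 of the 6 Sox6 windows held 2 matches. A match of these letters is a description of the window and not a binding site.

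Sox6, the other partner of Sox9 (ENSMUSG00000051910, GRCm38 chromosome 7, 115470872 to 116038796, minus strand), was lowest in WT cells. WT Cre libraries had 3.68, 3.30 and 2.82 CPM and WT GFP libraries 5.25, 5.53 and 4.30 CPM, without overlap, and all 18 libraries of the other genotypes had 5.76 CPM or more. The fall with Cre in WT cells was -0.63 (SE 0.13, adjusted p = 0.00932). It was lost without WT GFP replicate 1 or 2 or WT Cre replicate 3 (adjusted p 0.0545 to 0.0907). In Vhl cells Sox6 had 6.85, 6.50 and 5.90 CPM with Cre, against 6.97, 6.88 and 7.60 CPM with GFP, and the change of -0.16 was not called (adjusted p = 0.314). The difference of these Cre effects, 0.47 (SE 0.17, adjusted p = 0.0468), was lost under 10 of 18 alternatives (adjusted p 0.0507 to 0.145). Over WT GFP, Sox6 was higher by 0.50 in Vhl GFP (SE 0.12, adjusted p = 0.00182), by 0.64 in Rassf1a GFP (SE 0.12, adjusted p = 0.000342) and by 0.45 in Vhl/Rassf1a GFP (SE 0.12, adjusted p = 0.0124). The last of these calls was lost without WT GFP replicate 3 (adjusted p = 0.076) or Vhl/Rassf1a GFP replicate 1 (0.0765), and in a fit of those groups alone (0.157). Without the 2 libraries that stood apart Sox6 was 0.68 higher in Rassf1a GFP and 0.51 higher in Vhl/Rassf1a GFP (adjusted p = 9.15e-05 and 0.00394). The 3 Sox genes had different orders of groups, with Sox9 lowest in Rassf1a GFP, Sox5 lowest in Vhl Cre and Sox6 lowest in WT Cre libraries.

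Acan, the core protein of aggrecan (ENSMUSG00000030607, GRCm38 chromosome 7, 79053483 to 79115099), fell with Cre in Vhl/Rassf1a cells and not in Vhl cells. It had 2.80, 3.19 and 2.70 CPM in Vhl/Rassf1a Cre, against 7.75, 7.60 and 5.85 CPM in Vhl/Rassf1a GFP libraries. The groups did not overlap, and the change was -1.29 (SE 0.12, adjusted p = 1.47e-08), or -1.24 without the 2 libraries that stood apart. In Vhl cells it had 4.03, 3.35 and 4.00 CPM with Cre, against 3.86, 3.90 and 3.43 CPM with GFP (0.02, SE 0.12, adjusted p = 0.908). In Rassf1a cells it had 1.71, 1.87 and 2.06 CPM with Cre, against 2.65, 2.49 and 2.06 CPM with GFP (-0.34, SE 0.14, adjusted p = 0.588). In WT cells it had 1.03, 1.20 and 1.11 CPM with Cre, against 1.15, 1.21 and 1.18 CPM with GFP (-0.08, SE 0.17, adjusted p = 0.998). The Cre effect in Vhl/Rassf1a cells differed from that in Vhl cells by -1.32 (SE 0.17, adjusted p = 4.54e-05), from that in WT cells by -1.21 (SE 0.21, adjusted p = 0.000223) and from that in Rassf1a cells by -0.96 (SE 0.18, adjusted p = 0.000631). Leaving out the 2 libraries that stood apart, these differences were -1.26, -1.15 and -0.98 and were still called (adjusted p = 2.44e-05, 0.000383 and 0.000844).

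The level of Acan in GFP libraries also differed between genotypes. Over WT GFP it was 5.98-fold higher in Vhl/Rassf1a GFP (2.58 on the log2 scale, SE 0.14, adjusted p = 1.89e-12), 3.15-fold in Vhl GFP (1.66, SE 0.14, adjusted p = 5.39e-09) and 2.02-fold in Rassf1a GFP (1.02, SE 0.15, adjusted p = 2.90e-05). With both libraries that stood apart left out, the log2 values were 2.52 in Vhl/Rassf1a GFP and 0.93 in Rassf1a GFP (adjusted p = 5.66e-13 and 0.000194). With Cre the Vhl/Rassf1a libraries had 2.70 to 3.19 CPM against 3.35 to 4.03 CPM in Vhl cells, and with GFP they had 5.85 to 7.75 CPM against 3.43 to 3.90 CPM. The ranges did not overlap in either pair, which was not tested directly.

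Hapln1, the link protein (ENSMUSG00000021613, GRCm38 chromosome 13, 89539796 to 89611652), was higher in Vhl GFP and Vhl/Rassf1a GFP than in WT GFP libraries and was called with Cre in none of the 4 genotypes by edgeR. The unadjusted p was under 0.05 in 3 of them, and DESeq2 also made no such call. It had 4.49, 4.91 and 4.40 CPM in Vhl Cre and 4.21, 3.08 and 2.58 CPM in Vhl GFP libraries, with the Cre values above all GFP values (0.50, SE 0.22, adjusted p = 0.0863). This passed in a fit of those groups alone (adjusted p = 0.0118), with no filter (0.0153), with GC-corrected offsets (0.0167) and without Vhl GFP replicate 1 (0.71, adjusted p = 0.0276). It had 2.13, 2.18 and 2.60 CPM in Vhl/Rassf1a Cre and 2.21, 1.61 and 2.88 CPM in Vhl/Rassf1a GFP libraries. It had 1.29, 0.564 and 0.908 CPM in Rassf1a Cre and 0.989, 1.25 and 1.90 CPM in Rassf1a GFP libraries. In WT cells it was scarce, at 0.514, 0.312 and 0.613 CPM with Cre and 0.783, 0.998 and 0.672 CPM with GFP. Over WT GFP it was higher by 1.98 in Vhl GFP (SE 0.28, adjusted p = 6.19e-06) and by 1.43 in Vhl/Rassf1a GFP (SE 0.29, adjusted p = 0.00137), and without the 2 libraries that stood apart the last value was 1.63. In Rassf1a GFP it was 0.76 (SE 0.31, adjusted p = 0.102), with overlapping ranges, and without those libraries 0.93 and called (adjusted p = 0.0198). Vhl GFP and Vhl/Rassf1a GFP ranges overlapped as well. The Cre effects in Vhl and WT cells differed by 1.28 (SE 0.43, adjusted p = 0.0343), a call lost without 7 of the 12 libraries in turn, WT GFP replicate 1 or 2, WT Cre replicate 1 or 2, Vhl GFP replicate 2 or 3 and Vhl Cre replicate 2 (adjusted p 0.0555 to 0.114).

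**Figure D3:**
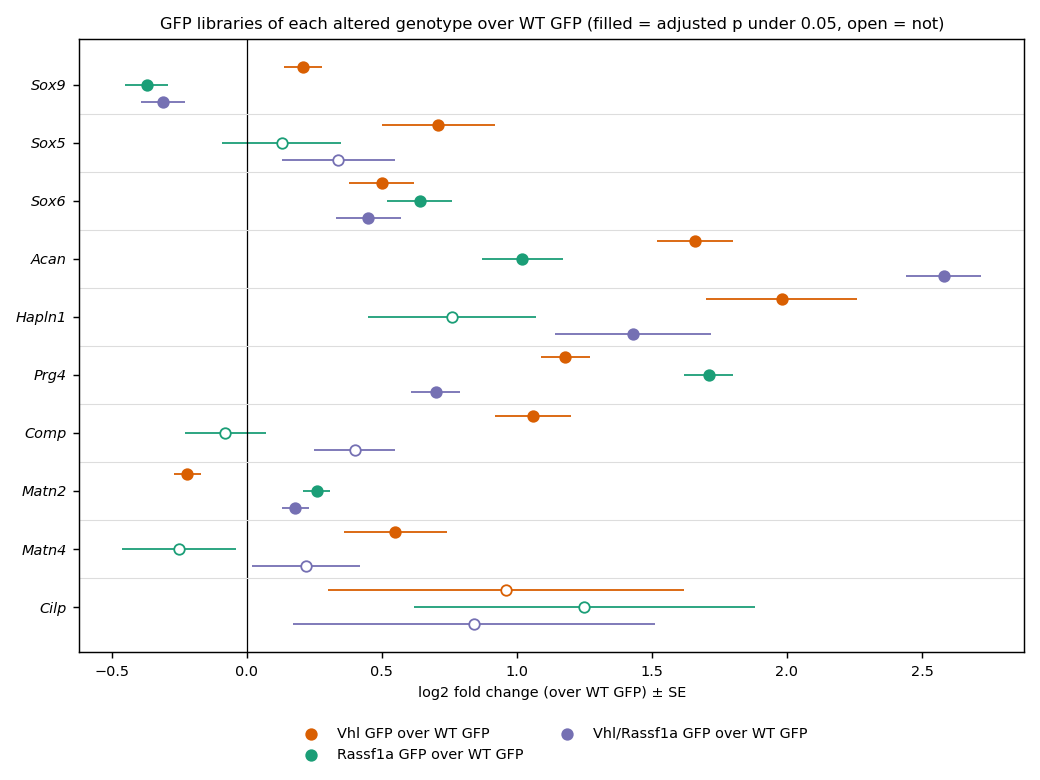
log2 fold change over WT GFP with its SE for each of the 10 genes (rows) in Vhl GFP, Rassf1a GFP and Vhl/Rassf1a GFP libraries (colours), filled where the adjusted p was under 0.05. Sox6, Acan and Prg4 are filled and right of 0 in all 3 genotypes, and Sox9 lies at 0.21 in Vhl GFP but at -0.37 and -0.31 in Rassf1a GFP and Vhl/Rassf1a GFP.

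Prg4, or lubricin, the boundary lubricant of joints and tendons (ENSMUSG00000006014, GRCm38 chromosome 1, 150449412 to 150466165, minus strand), rose with Cre in 3 genotypes. It had 91.0, 89.5 and 95.2 CPM in Vhl/Rassf1a Cre, against 39.4, 40.6 and 38.1 CPM in Vhl/Rassf1a GFP libraries. This was a 2.33-fold rise with no overlap (log2 fold change 1.22, SE 0.08, adjusted p = 1.09e-10), and it was 1.25 without the 2 libraries that stood apart (adjusted p = 1.13e-11). In Vhl cells it had 78.1, 67.1 and 72.4 CPM with Cre, against 62.3, 52.1 and 50.5 CPM with GFP (0.40, SE 0.08, adjusted p = 0.000436). In WT cells it had 38.9, 35.9 and 38.1 CPM with Cre, against 21.3, 26.0 and 25.4 CPM with GFP (0.64, SE 0.09, adjusted p = 0.00023). In Rassf1a cells it had 91.1, 82.4 and 100.5 CPM with Cre, against 77.5, 81.7 and 78.8 CPM with GFP, where the Cre values lay higher but the change of 0.20 was not called (SE 0.08, adjusted p = 0.571).

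A rise of Prg4 was also present where no gene is named as altered. Its Cre effect in Vhl cells differed from that in WT cells by -0.24, which was not called (SE 0.12, adjusted p = 0.169). The effect in Vhl/Rassf1a cells exceeded that in WT cells by 0.58 (SE 0.12, adjusted p = 0.00135), that in Vhl cells by 0.82 (SE 0.12, adjusted p = 0.000104) and that in Rassf1a cells by 1.02 (SE 0.12, adjusted p = 1.09e-06). Over WT GFP, Prg4 was higher by 1.18 in Vhl GFP (SE 0.09, adjusted p = 3.04e-10), by 1.71 in Rassf1a GFP (SE 0.09, adjusted p = 1.04e-12) and by 0.70 in Vhl/Rassf1a GFP (SE 0.09, adjusted p = 2.56e-06). Without the 2 libraries that stood apart the Vhl/Rassf1a effect exceeded those in WT, Vhl and Rassf1a cells by 0.61, 0.84 and 1.05, and Prg4 was above WT GFP by 1.72 in Rassf1a GFP and by 0.68 in Vhl/Rassf1a GFP, with all 5 called. Prg4 and Acan moved in opposite directions with Cre in Vhl/Rassf1a cells, and both of these effects differed from those in the other 3 genotypes. Prg4 shares 204 exon bases with Tpr on the opposite strand.

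Comp, a thrombospondin of cartilage and tendon that binds collagen (ENSMUSG00000031849, GRCm38 chromosome 8, 70373558 to 70382066), had the largest fall with Cre among the 10 genes. It had 3.88, 4.14 and 5.01 CPM in Vhl Cre, against 12.2, 13.0 and 12.3 CPM in Vhl GFP libraries. The groups were far apart, and the change was -1.53 (SE 0.15, adjusted p = 1.73e-08). In Vhl/Rassf1a cells it had 4.23, 4.11 and 3.72 CPM with Cre, against 6.49, 10.1 and 7.05 CPM with GFP (-0.98, SE 0.15, adjusted p = 2.08e-05). The value of 10.1 CPM is that of Vhl/Rassf1a GFP replicate 2, and without the 2 libraries that stood apart the change was -0.75 (adjusted p = 3.5e-05). In Rassf1a cells Comp had 5.07, 5.16 and 6.01 CPM with Cre, against 6.40, 5.59 and 5.15 CPM with GFP. In WT cells it had 4.48, 6.11 and 6.41 CPM with Cre, against 5.65, 6.34 and 6.05 CPM with GFP, and both of these pairs overlap (-0.07 and -0.08, adjusted p = 0.998 and 0.996).

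The Cre effect on Comp in Vhl cells differed from that in WT cells by -1.45 (SE 0.21, adjusted p = 1.49e-05). The effect in Vhl/Rassf1a cells differed from that in WT cells by -0.90 (SE 0.21, adjusted p = 0.00463) and from that in Rassf1a cells by -0.91 (SE 0.21, adjusted p = 0.00389). Without the 2 libraries that stood apart these last values were -0.67 and -0.78 (adjusted p = 0.00539 and 0.00233). The effect in Vhl/Rassf1a cells minus that in Vhl cells was 0.55 and not called (SE 0.21, adjusted p = 0.14), and without the 2 libraries that stood apart it was 0.78 and called (adjusted p = 0.0025). Comp was also 2.08-fold higher in Vhl GFP than in WT GFP (1.06, SE 0.14, adjusted p = 3.95e-06). In Vhl/Rassf1a GFP it was 0.40 above WT GFP and not called (adjusted p = 0.0816), or 0.17 without those libraries. With Cre, the levels in Vhl and Vhl/Rassf1a cells were 3.72 to 5.01 CPM, next to 4.48 to 6.41 CPM in WT cells.

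Matn2, a matrilin that links matrix filaments in many connective tissues (ENSMUSG00000022324, GRCm38 chromosome 15, 34306677 to 34436273), fell with Cre in Vhl and in Vhl/Rassf1a cells. It had 28.9, 26.6 and 27.4 CPM in Vhl Cre, against 41.5, 40.5 and 42.7 CPM in Vhl GFP libraries (-0.59, SE 0.05, adjusted p = 3.90e-09). It had 41.5, 41.4 and 39.8 CPM in Vhl/Rassf1a Cre, against 54.0, 55.9 and 54.8 CPM in Vhl/Rassf1a GFP libraries (-0.42, SE 0.05, adjusted p = 7.45e-07). Neither pair overlapped, and replicates lay close together. Leaving out the 2 libraries that stood apart, the Vhl/Rassf1a change was -0.41 (adjusted p = 1.58e-07). In Rassf1a cells it had 56.1, 52.2 and 56.0 CPM with Cre and 61.1, 57.6 and 55.5 CPM with GFP. In WT cells it had 48.9, 51.1 and 47.5 CPM with Cre and 49.9, 49.9 and 45.9 CPM with GFP. Neither of these changes was called (-0.08 and 0.02, adjusted p = 0.895 and 0.998).

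The difference of Cre effects on Matn2 was -0.61 between Vhl and WT cells (SE 0.07, adjusted p = 1.03e-06), -0.44 between Vhl/Rassf1a and WT cells (SE 0.07, adjusted p = 0.000121) and -0.34 between Vhl/Rassf1a and Rassf1a cells (SE 0.07, adjusted p = 0.00162). Without the 2 libraries that stood apart the differences with Vhl/Rassf1a were -0.42 against WT and -0.37 against Rassf1a cells (adjusted p = 2.58e-05 and 0.000242). Over WT GFP it was lower in Vhl GFP (-0.22, SE 0.05, adjusted p = 0.00133) and higher in Rassf1a GFP (0.26, SE 0.05, adjusted p = 0.000756), or 0.21 without the pair that stood apart and lost in a fit of those groups alone (adjusted p = 0.00221 and 0.0574). The 0.18 by which it was higher in Vhl/Rassf1a GFP (adjusted p = 0.0231) was lost without WT GFP replicate 3 (adjusted p = 0.123) or Vhl/Rassf1a GFP replicate 2 (0.0624), in a fit of those groups alone (0.258) and with no filter (0.279). Without the pair that stood apart it was 0.16 (adjusted p = 0.0292). Matn2 shares 70 exon bases with 9430069I07Rik on the opposite strand.

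**Figure D4:**
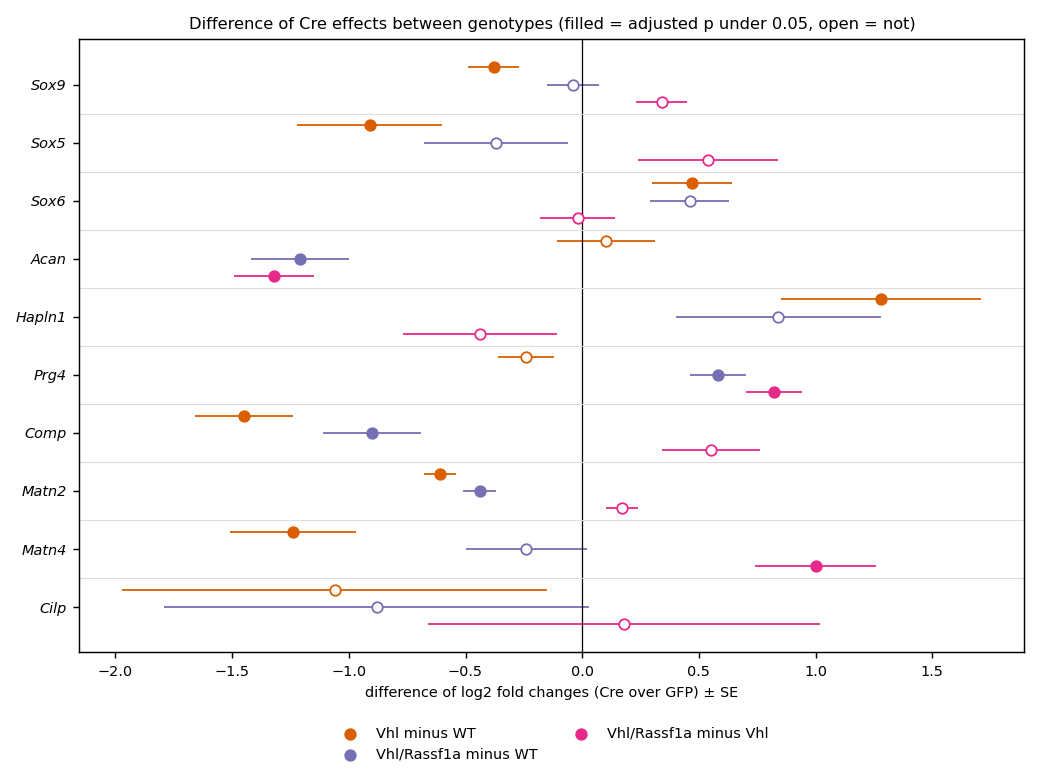
Difference of Cre effects (log2 fold changes of Cre over GFP) between genotypes with its SE for each of the 10 genes (rows), Vhl minus WT, Vhl/Rassf1a minus WT and Vhl/Rassf1a minus Vhl (colours), filled where the adjusted p was under 0.05. Comp and Matn2 are filled and negative for Vhl and for Vhl/Rassf1a against WT, while Acan is near 0 for Vhl minus WT and at -1.21 and -1.32 in the contrasts with Vhl/Rassf1a.

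Matn4, a matrilin with 21 to 80 counts a library (ENSMUSG00000016995, GRCm38 chromosome 2, 164389393 to 164405160, minus strand), had Cre effects that differed between Vhl and WT cells. It had 0.685, 0.982 and 0.921 CPM in Vhl Cre, against 1.25, 1.40 and 0.962 CPM in Vhl GFP libraries (-0.47, SE 0.19, adjusted p = 0.0575). In WT cells it had 1.14, 1.77 and 1.25 CPM with Cre, against 0.760, 0.863 and 0.840 CPM with GFP (0.77, SE 0.19, adjusted p = 0.0472). These effects differed by -1.24 (SE 0.27, adjusted p = 0.00141), a call that held under the alternatives tried. In Vhl/Rassf1a cells it had 1.51, 1.18 and 1.39 CPM with Cre, against 1.02, 0.955 and 0.888 CPM with GFP (0.53, SE 0.18, adjusted p = 0.032). In Rassf1a cells it had 1.05, 1.21 and 1.16 CPM with Cre, against 0.611, 0.716 and 0.735 CPM with GFP, without overlap but not called (0.72, SE 0.20, adjusted p = 0.167). The rise in WT cells was lost under 9 of 12 alternatives (adjusted p up to 0.345) and that in Vhl/Rassf1a cells under 8 of 13 (up to 0.142), among them the one without the 2 libraries that stood apart (0.53, adjusted p = 0.068). The Cre effect in Vhl/Rassf1a cells was 1.00 above that in Vhl cells (SE 0.26, adjusted p = 0.0238), lost under 8 of 19 alternatives (up to 0.0788) and called without those libraries (1.00, adjusted p = 0.0315). Over WT GFP it was higher by 0.55 in Vhl GFP (SE 0.19, adjusted p = 0.0338), lost under 8 of 12 (up to 0.17). Matn4 shares 149 exon bases with Rbpjl on the opposite strand.

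Between effects of Cre, 7 of the 10 genes differed between Vhl and WT cells (2 higher and 5 lower, where 23.2% of all genes were called, 10.7% higher and 12.5% lower). Between Vhl/Rassf1a and WT cells 1 was higher and 3 lower, where 14.8% of all genes were called (7.41% higher and 7.4% lower). For Vhl/Rassf1a against Vhl cells 2 were higher and 1 lower, against 6.09% (3.44% higher and 2.65% lower). Against Rassf1a cells 1 was higher in Vhl/Rassf1a cells and 3 lower, against 15% (7.95% higher and 7.1% lower). Between Rassf1a and WT cells 0 of the 10 passed in edgeR and 0 in DESeq2, where 0.00603% of all genes were called in edgeR and 1 of the 10, Prg4, had an unadjusted p under 0.05.

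Other genes of cartilage were taken from lists drawn up for this tissue. Of 8 cartilage collagens tested, 1 rose and 2 fell with Cre in Vhl cells, a share near the 36.1% of all genes called there: Col11a2 rose (0.41, SE 0.16, adjusted p = 0.0434), while Col10a1, the collagen of hypertrophic cartilage, fell (-0.44, SE 0.07, adjusted p = 4.45e-05) and so did Col9a2 (-0.81, SE 0.19, adjusted p = 0.0015). With Cre in Vhl/Rassf1a cells Col10a1 fell (-0.52, SE 0.07, adjusted p = 1.25e-05) and was the 1 collagen called. Col2a1, a direct target of Sox9, averaged 519.7 CPM ± 55.2 in Vhl Cre and 661.6 CPM ± 77.6 in Vhl GFP libraries (-0.35, SE 0.14, adjusted p = 0.0633), and its adjusted p in the other 3 genotypes was 0.694 to 0.998. In GFP libraries it averaged 661.6 CPM ± 77.6 in Vhl GFP, 144.3 CPM ± 31.0 in Rassf1a GFP and 365.3 CPM ± 82.1 in Vhl/Rassf1a GFP, against 317.9 CPM ± 44.5 in WT GFP, and the first 2 differed from WT GFP (1.06 and -1.14, adjusted p = 5.36e-06 and 4.92e-06).

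Of the 4 thrombospondins tested, the relatives of Comp, 3 fell with Cre in Vhl cells, where 18.7% of all genes fell. Thbs3 averaged 14.3 CPM ± 0.954 in Vhl Cre and 45.6 CPM ± 1.24 in Vhl GFP libraries (-1.67, SE 0.08, adjusted p = 1.6e-13). Thbs4, at 0.373 CPM ± 0.0844 against 1.96 CPM ± 1.41, fell by 2.39 (SE 0.43, adjusted p = 0.000109) and Thbs2 by 0.22 (SE 0.06, adjusted p = 0.00549) on the log2 scale. Thbs3 also fell in Vhl/Rassf1a cells (-1.20, SE 0.08, adjusted p = 4.32e-11), where Thbs2 rose (0.41, SE 0.06, adjusted p = 1.11e-05) and Thbs1 rose (0.17, SE 0.04, adjusted p = 0.00566). In Vhl GFP against WT GFP 3 of the 4 thrombospondins were higher and 0 lower, where 17.2% of all genes were higher. Thbs3 was the 1 not called there (0.11, adjusted p = 0.314). Among the relatives of Acan and Hapln1, 1 of 4 tested rose with Cre in Vhl cells, where 17.4% of all genes rose: Hapln4, a link protein of brain (1.94, SE 0.21, adjusted p = 1.32e-07). In Vhl/Rassf1a cells 2 of 4 rose, against 14.9% of all genes, Hapln4 (0.80, SE 0.21, adjusted p = 0.00515) and Vcan, the versican proteoglycan (0.25, SE 0.08, adjusted p = 0.0223), where Acan fell.

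Among 7 other Sox genes tested, 1 rose and 3 fell with Cre in Vhl cells, with Sox12 at -1.13 (SE 0.12, adjusted p = 1.04e-07), Sox4 at -0.41 (SE 0.13, adjusted p = 0.0136) and Sox8 at -1.12 (SE 0.37, adjusted p = 0.0196). Sox8 was scarce, at 0.226 CPM in Vhl Cre against 0.507 CPM in Vhl GFP libraries. Of 11 growth plate regulators, 1 rose and 4 fell, among them Gli1, a readout of hedgehog signalling (-3.61, SE 0.37, adjusted p = 5.64e-08), and Pth1r, the receptor for parathyroid hormone-related protein (-0.53, SE 0.11, adjusted p = 0.000499). Gli1 was scarce, at 0.0775 CPM in Vhl Cre against 0.982 CPM in Vhl GFP libraries, which leaves the size of its fall uncertain. Gli1 also fell in Vhl/Rassf1a cells (-2.28, SE 0.33, adjusted p = 9.58e-06), where Gdf5, a signal of the joint region in which Prg4 is made, rose (1.18, SE 0.28, adjusted p = 0.0025). There Gli1 averaged 0.146 CPM with Cre against 0.761 CPM with GFP. Of 16 genes for hyaluronan and sulphated glycosaminoglycans, the sugar chains that aggrecan carries and binds, 8 rose and 3 fell in Vhl cells and likewise 8 and 3 in Vhl/Rassf1a cells. Csgalnact1, which starts chondroitin chains, fell in Vhl cells (-1.15, SE 0.08, adjusted p = 9.83e-11), whereas Papss2, which makes the sulphate donor, rose (0.66, SE 0.07, adjusted p = 8.7e-08). Has2, a hyaluronan synthase, rose in Vhl/Rassf1a cells (1.01, SE 0.11, adjusted p = 3.47e-07). These counts stand beside the 36.1% and 29.7% of all genes called.

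Summed levels of several marker lists also differed between Cre and GFP libraries of Vhl cells, where 17.4% of all genes rose and 18.7% fell. A sum follows its most abundant genes and is not by itself a shift of the whole list. Those were Acta1 and Des for muscle, Cd248 and Fmod for tendon and synovium, and Col1a1, Col1a2 and Vim for fibroblasts. The summed level of 6 tendon and synovium genes was 520.7 to 560.5 CPM in Vhl Cre, against 848.2 to 882.1 CPM in Vhl GFP libraries, and 4 of the 6 fell, among them Fmod, fibromodulin (-1.42, SE 0.07, adjusted p = 3.66e-13), and Scx, the tendon factor scleraxis (-0.97, SE 0.20, adjusted p = 0.000469). The sum was 571.9 to 642.7 CPM in WT GFP libraries. The summed level of 12 fibroblast genes was 25928 to 28686 CPM in Vhl Cre, against 33308 to 35243 CPM in Vhl GFP libraries, and 6 of the 12 fell. The 6 epithelial genes summed to 126.2 to 146.3 CPM in Vhl Cre, against 37.7 to 38.8 CPM in Vhl GFP, nearly all of it keratins, and 5 of the 5 tested rose. The 6 skeletal muscle genes summed to 377.4 to 454.9 CPM in Vhl Cre, against 134.9 to 152.0 CPM in Vhl GFP, and 2 of the 3 tested rose. Acta1 averaged 339.8 CPM in Vhl Cre against 83.5 CPM in Vhl GFP, and Des 83.5 CPM against 61.0 CPM. The 6 endothelial genes summed to 13.4 to 14.2 CPM in Vhl Cre, against 6.21 to 7.47 CPM in Vhl GFP, and 4 of the 6 rose. The 6 fat genes summed to 28.4 to 29.7 CPM in Vhl Cre, against 46.9 to 57.7 CPM in Vhl GFP, and 2 of the 4 tested fell. In Vhl/Rassf1a cells the tendon and synovium sum was 565.2 to 606.8 CPM with Cre and 621.3 to 756.1 CPM with GFP, and the epithelial sum 193.6 to 200.9 CPM with Cre and 75.4 to 97.0 CPM with GFP. The skeletal muscle sum there was 462.4 to 485.6 CPM with Cre and 193.0 to 243.0 CPM with GFP. The fat sum was 23.2 to 25.3 CPM with Cre and 42.3 to 47.5 CPM with GFP. The endothelial sum was 13.46 to 14.93 CPM with Cre and 12.23 to 13.09 CPM with GFP. The fibroblast sums overlapped, at 26766 to 28862 CPM with Cre and 25970 to 33777 CPM with GFP. Of the genes tested there, 1 of 12 fibroblast genes rose and 1 fell, and 2 of 6 tendon and synovium genes fell. Rises were called for 3 of 5 epithelial, 2 of 3 muscle and 2 of 6 endothelial genes, and falls for 4 of 4 fat genes. Among all genes 14.9% rose and 14.8% fell there. Uty, of the Y chromosome, rose with Cre in Vhl cells (0.62, SE 0.20, adjusted p = 0.017) and Xist, of the inactive X chromosome, fell (-0.62, SE 0.18, adjusted p = 0.00998). Between GFP libraries they differed too. Over WT GFP, Xist was higher in Vhl GFP (0.76, adjusted p = 0.00246), Rassf1a GFP (0.77, adjusted p = 0.00429) and Vhl/Rassf1a GFP (0.90, adjusted p = 0.00142). Uty was lower in Rassf1a GFP (-1.11, adjusted p = 0.000529) and Vhl/Rassf1a GFP (-1.64, adjusted p = 1.08e-05), and not called in Vhl GFP (-0.25, adjusted p = 0.389). The part of any of these in the results for the 10 genes was not tested.

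The genes whose log2 CPM followed each member most closely over the 24 libraries were found among genes with a mean of at least 1 CPM. These correlations describe libraries that share groups and depth, and carry no test. Matn2 was followed by Mki67, Lmnb1 and Hmgb2, genes of dividing cells, each at r = 0.966, the closest match of any member. Mki67 averaged 97.5 CPM ± 9.91 in Vhl Cre against 179.2 CPM ± 1.53 in Vhl GFP, and 196.5 CPM ± 4.97 in Vhl/Rassf1a Cre against 266.5 CPM ± 9.97 in Vhl/Rassf1a GFP. It averaged 265.7 CPM ± 6.58 in Rassf1a Cre against 257.5 CPM ± 3.93 in Rassf1a GFP, and 243.3 CPM ± 16.0 in WT Cre against 245.2 CPM ± 13.7 in WT GFP. Like Matn2, Mki67 fell with Cre in Vhl cells (-0.88, SE 0.06, adjusted p = 7.61e-11) and likewise in Vhl/Rassf1a cells (-0.44, SE 0.06, adjusted p = 4.54e-06), and was lower in Vhl GFP than in WT GFP (-0.45, SE 0.06, adjusted p = 2.79e-06). Unlike Matn2, Mki67 was not called against WT GFP in Rassf1a GFP (0.07, adjusted p = 0.493) or Vhl/Rassf1a GFP (0.12, adjusted p = 0.229).

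**Figure D5:**
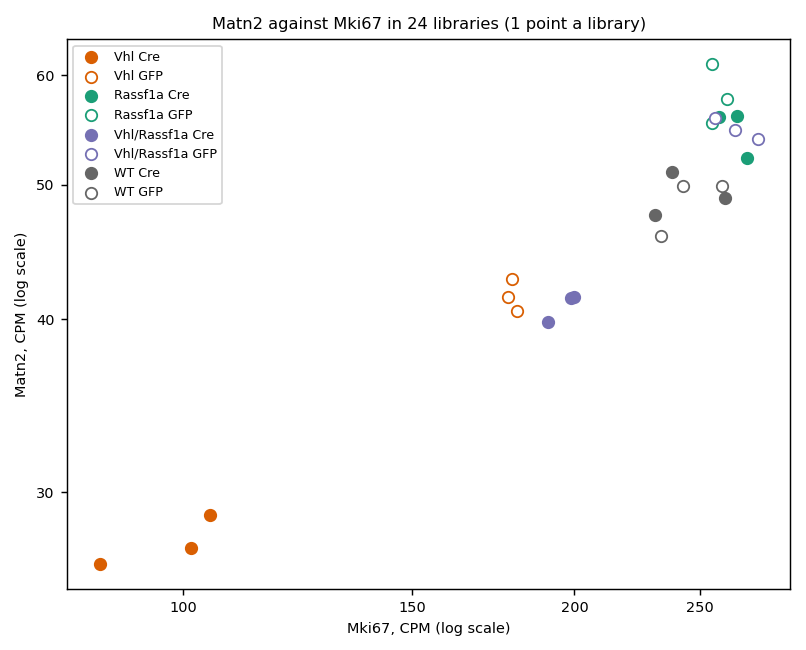
Matn2 against Mki67 in CPM (log axes), 1 point for each of 24 libraries, with genotypes in colour, Cre filled and GFP open. Vhl Cre libraries sit lowest on both axes, Vhl GFP and Vhl/Rassf1a Cre libraries come next, and the other 5 groups lie at the top right.

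Comp was followed by Ssc5d (r = 0.952), Islr (0.938) and Kng1 (0.925), and Ssc5d averaged 60.9 CPM ± 4.71 in Vhl Cre against 123.3 CPM ± 1.93 in Vhl GFP. Acan was followed by Nell2 (r = 0.938), Rspo2 (0.912) and Sumf2 (0.897), and Nell2 averaged 23.3 CPM ± 1.32 in Vhl/Rassf1a Cre against 43.2 CPM ± 1.97 in Vhl/Rassf1a GFP. Hapln1 was followed by Prnp (r = 0.935), Mtss1 (0.931) and Sulf1 (0.925), and Prg4 by Mgll (0.934), Plpp5 (0.924) and Mfap5 (0.895). Sox9 was followed by Ogdhl (r = 0.915), Rpl29 (0.874) and Mapkapk3 (0.874). The last 2 lie on chromosome 9 near Rassf1, which spans 107551555 to 107562267, with Mapkapk3 at 107254927 to 107289877 and Rpl29 at 106429454 to 106431568. Rpl29 averaged 25.3 to 27.4 CPM in the 4 Rassf1a and Vhl/Rassf1a groups, Cre and GFP, and 251.0 to 285.6 CPM in the other 4. For Sox6 the closest was Mtus1 (r = 0.868), for Sox5 Rcor3 (0.809), for Matn4 Susd2 (0.704) and for Cilp C79130 (0.628).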

How the data were processed

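The deposited table holds raw counts per gene, and per the labels' protocols the NucleoSpin RNA kit served for extraction and a TruSeq Stranded kit for the libraries. Per the submitters' processing notes, Trimmomatic 0.38, STAR 2.5.2b and GRCm38 were used, while no source used here names the counting tool, strand setting or annotation. Symbols, positions and exon lengths came from GENCODE M21, which named 45143 of 45706 IDs. Groups and replicate numbers are those of the sample titles. With edgeR 4.0.16 in R 4.3.3, genes passing filterByExpr (minimum count 10, minimum total 15) were fitted by the quasi-likelihood method to all 24 libraries with 1 mean per group and TMM scaling, which left 16 residual degrees of freedom and a common biological coefficient of variation of 7.73%. The SE is the log2 fold change over the root of F. Tests are two-sided, with 12 comparisons in all. Replicate pairs all differed beyond sampling noise (lowest chi-square per degree of freedom 2.93). The scripts were tested on simulated counts. The 10 genes and all gene lists were chosen with earlier results of these data known. Genes outside the 10 were named by rule: up to 3 called members of a list with the smallest adjusted p in a comparison, and the 3 genes most correlated with each member (log2 of CPM + 0.5). Col2a1, Thbs3 between GFP libraries, the cell type and cartilage markers given by their range, Uty and Xist were chosen after their values were seen. Sequences are from RefSeq (GRCm38.p6). Alternatives were DESeq2 1.42.0 (size factors and Wald test), no filter, a replicate block, a fit of only the groups compared, GC-corrected offsets (lowess span 0.3), and libraries left out.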

Additional observations from a re-analysis of the deposited data

Results flagged for a closer look

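Differences of the Cre effect between genotypes that passed the edgeR test are gathered here as log2 differences, with their values per library and errors in the report. Between Vhl and WT cells (Vhl minus WT) they were -0.38 for Sox9, -0.91 for Sox5, 0.47 for Sox6, 1.28 for Hapln1, -1.45 for Comp, -0.61 for Matn2 and -1.24 for Matn4. Between Vhl/Rassf1a and WT cells they were -1.21 for Acan, 0.58 for Prg4, -0.90 for Comp and -0.44 for Matn2. Between Vhl/Rassf1a and Vhl cells they were -1.32 for Acan, 0.82 for Prg4 and 1.00 for Matn4. Between Vhl/Rassf1a and Rassf1a cells they were -0.96 for Acan, 1.02 for Prg4, -0.91 for Comp and -0.34 for Matn2.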

How the results depend on the processing

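The 10 genes were called 52 times over 12 comparisons. Under the alternatives 36 of these calls kept their side of the threshold, 16 lost it under at least 1, and none changed sign. Of 1817 recomputed values 1705 kept their side of the threshold, 85 lost a call and 27 gained one. Values not called on either side could change sign among the 1705, as Comp did with Cre in Rassf1a cells (-0.07, or 0.03 without the 2 libraries that stood apart).

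Counts of called genes depended more on the method. With GC-corrected offsets there were 524 in WT cells (in place of 209), 213 in Rassf1a cells (in place of 65), 3973, 2244 and 4031 for the Vhl/Rassf1a Cre effect against those in WT, Vhl and Rassf1a cells (in place of 2454, 1010 and 2493), and 3008 for Vhl/Rassf1a GFP against WT GFP (in place of 1913). A fit of only the groups compared gave 12 in Rassf1a cells, 3008 in Vhl/Rassf1a cells (in place of 4919), 0 for Rassf1a against WT effects (in place of 1), 631 for Vhl/Rassf1a against Vhl effects, 1466 for Rassf1a GFP (in place of 2664) and 778 for Vhl/Rassf1a GFP, where 3 of the 10 genes were called in place of 6. The Wald test of DESeq2 gave 103 in Rassf1a cells. With no filter there were 151 in Rassf1a cells and 22 for Rassf1a against WT effects. Without the pair of GFP libraries that stood apart (replicate 1 of Rassf1a and replicate 2 of Vhl/Rassf1a) there were 112 in Rassf1a cells, 2 for Rassf1a against WT effects and 1856 for Vhl/Rassf1a against Vhl effects. For that last contrast 5 of the 10 genes were then called, and 6 with GC-corrected offsets, in place of 3. The causes were not tested.

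Leaving out 1 library at a time gave 87 to 187 calls in WT, 5089 to 5320 in Vhl, 24 to 67 in Rassf1a and 4055 to 4782 in Vhl/Rassf1a cells. Effects against WT gave 3368 to 3536 (Vhl), 0 to 1 (Rassf1a) and 2045 to 2624 (Vhl/Rassf1a), and Vhl/Rassf1a effects 713 to 1186 against Vhl and 2071 to 2918 against Rassf1a. GFP libraries gave 4356 to 4778 (Vhl), 2003 to 2579 (Rassf1a) and 1399 to 1964 (Vhl/Rassf1a). Of the 10 genes 1 to 3 were called in WT cells, 4 to 6 for Vhl against WT effects and 2 to 5 for Vhl/Rassf1a against Vhl effects. With Cre in Vhl/Rassf1a cells 4 to 5 were called in place of 6, and in Vhl GFP against WT GFP 6 to 8 in place of 9.

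Nothing in the labels says whether replicate numbers pair the samples. Deviations of same-numbered Cre and GFP libraries correlated at -0.268 to 0.13, and those of differently numbered libraries at -0.223 to 0.277. With 3 libraries a group these values cannot decide whether the samples were paired. With replicate numbers as a block, 189, 5849, 62 and 4760 genes were called with Cre in WT, Vhl, Rassf1a and Vhl/Rassf1a cells, and 2, 5, 0 and 6 of the 10 genes. Cilp had the fewest counts of the 10 genes, 2 to 14 a library, and an SE of 0.57 to 0.91 for its log2 changes and differences.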
